A study of Homo sapiens with 30 samples.

Results

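Cells of the line 22Rv1 kept in medium with DMSO were compared at 8 h and at 4 h. The comparison takes 6 of the 30 libraries of the series, 3 from each time, and they were chosen by the treatment and time in their titles and by no measured value. 22Rv1 is a human prostate cancer line, and as 1 line it stands for no other. The cells of all 6 libraries were given 800 µM 4-thiouridine (s4U) for 30 min, after which the medium was exchanged for one that held s4U and DMSO, the solvent of the study's CDK9 inhibitors. Cells were collected 8 h later in one group and 4 h later in the other. No group lacked s4U or DMSO, so the comparison is of time spent in that medium. The remaining libraries were a 0 h group, DMSO at 2 h, and the inhibitors KB742 (1.2 µM) and KI-ARv-03 (4 µM) at 2, 4 and 8 h.

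In SLAM-seq, cells build s4U into the RNA they make, and alkylation of s4U then turns some T positions into C when the RNA is read. A gene therefore has a level, which counts old and new RNA together, and a conversion level, higher where more of its RNA was made after s4U came in. A transcript that turns over quickly loses its unlabelled copies early, while a stable one, such as those of ribosomal proteins or of the respiratory chain, keeps them for many hours. Among the short-lived transcripts are those of many transcription factors and cell cycle regulators.

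Levels are given in rescaled CPM, which are reads on a gene scaled to a common total per library (CPM) and then divided by edgeR's TMM factor, a number that lines up the bulk of genes between libraries. A level is thus a share of a library and not an amount per cell, because the table used here holds no spike-in RNA. The 8 h libraries held 2179440, 3781922 and 1416051 reads on genes, and the 4 h libraries 2071466, 2575775 and 2625222. The 10 most abundant genes took 7.40% to 7.89% of reads at 8 h and 5.44% to 6.16% at 4 h. The TMM factors were 0.684 to 0.766 at 8 h and 0.977 to 1.01 at 4 h. Nothing in the labels says that the 3 libraries of a time came from separate cultures, so p-values may measure technical spread. For replicates 2 and 3 at 4 h a treatment field reads 2 h where the title reads 4 h, and the title was used. Their mean conversion, 1.01% and 1.12%, lay beside the 1.12% of replicate 1 and outside the 0.655% to 0.894% of the DMSO libraries at 2 h. But 8 h replicate 1 had 0.897%, below every 4 h library, so mean conversion cannot decide between title and field.

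The luminal epithelial markers of the prostate were read at both times. All 15 were detected, and summed to 1468 to 1631 CPM without TMM factors at 8 h and 2076 to 2119 at 4 h. On the TMM scale their median log2 difference was 0.10, with 8 above 0 and 7 below 0. Of the 15, 0 were called changed by the test given below, near the 2.25% of all genes tested. The basal cell genes KRT5, KRT14, KRT17 and TP63 were at 0 at both times, and so was the immune gene PTPRC. The 10 neuroendocrine markers summed to 245 to 351 at 8 h and 294 to 520 at 4 h, with ENO2 highest at a mean of 121 at 8 h and 186 at 4 h, while INSM1, NEUROD1 and NCAM1 were at 0 at both times. The 7 endothelial markers summed to 0 at 8 h and to at most 0.388 at 4 h, and the 9 stromal markers summed to 30.7 to 48.0 at 8 h and 41.0 to 46.5 at 4 h.

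Most of the genes that differed between 8 h and 4 h had lower levels at 8 h. Of 11425 genes tested, 257 (2.25%) passed a Benjamini-Hochberg adjusted p under 0.05 in limma, called changed below. Of these, 37 (0.324% of genes tested) rose and 220 (1.93%) fell. The genes that rose were abundant, with a median level of 830 rescaled CPM at 8 h and 457 at 4 h, while those that fell had a median of 5.84 at 8 h and 19.6 at 4 h. The median over all genes tested was 17.2 at 8 h and 19.8 at 4 h. A change of at least 2-fold was reached by 8 of the genes that rose and 208 of those that fell. In 256 of the 257 the 2 groups of libraries did not overlap, a separation also seen in 11.4% of genes tested with 8 h above 4 h and in 16.4% with 8 h below.

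The number of changed genes depended on single libraries and on the scaling. It was 190 without 8 h replicate 1, 207 without 8 h replicate 2, 56 without 8 h replicate 3, 73 without 4 h replicate 1, 87 without 4 h replicate 2 and 30 without 4 h replicate 3. Of the genes that fell, 22 passed in all 6 of these fits, and of those that rose, 0. With scaling to library size and no TMM factor, the median gene shifted by -0.38 on the log2 scale, 1 gene rose and 1237 fell. With the scaling of the deposited table it shifted by -0.20, 0 genes rose and 200 fell. Rises are therefore given below as rises relative to the bulk of genes. With the single 4 h library whose title and treatment field both give 4 h, no gene passed and 1216 had an unadjusted p under 0.05. That fit takes the spread from the other groups and assumes that the lone library varies like them.

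**Figure D1:**
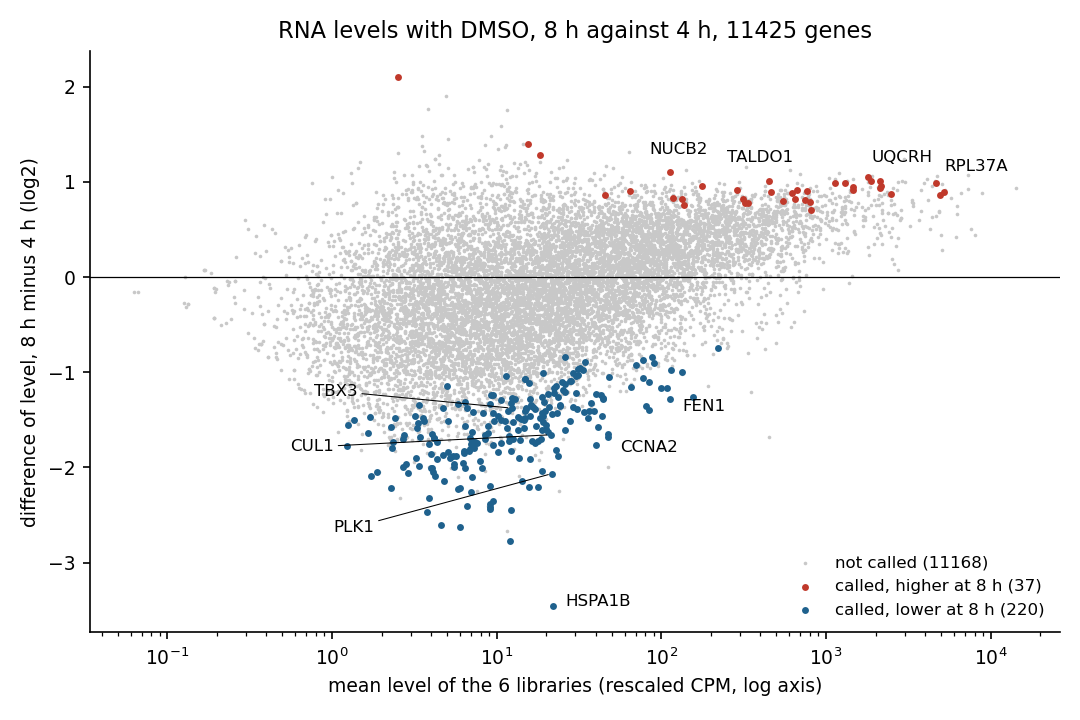
Difference of level between 8 h and 4 h with DMSO (8 h minus 4 h, log2) against the mean level of the 6 libraries (rescaled CPM, log axis), with 1 point a gene. The 37 genes called higher at 8 h (red) lie mostly at high levels and the 220 called lower (blue) mostly at low ones, and 11168 genes in grey were not called.

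Genes of mitosis made up the list with the most falls. Of 39 genes of the G2/M list, which holds the cyclins, kinases, kinesins and kinetochore proteins that cells use to enter and pass through mitosis, 10 fell and 0 rose, beside 1.93% of all genes that fell. The median log2 difference of the list was -0.90, beside -0.08 over all genes tested, and 36 of the 39 members were below 0. In 24 members the 8 h libraries all lay below the 4 h libraries, a separation found in 16.4% of genes tested. The list took 0.130% to 0.150% of reads on genes at 8 h and 0.238% to 0.288% at 4 h. In bulk RNA, fewer cells in a phase or of a type and less RNA per cell cannot be told apart.

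PLK1, the kinase that drives entry into mitosis and spindle assembly, had 8.06, 10.1 and 4.62 rescaled CPM at 8 h, against 27.9, 23.9 and 56.1 at 4 h. The times did not overlap, and 4 h replicate 3 stood highest. The means were 7.58 ± 2.76 at 8 h and 36.0 ± 17.6 at 4 h (SD, n = 3 each), a log2 difference of -2.06 ± 0.45 (SE; adjusted p = 0.0164, limma). CENPE, a kinesin that carries chromosomes to the spindle equator, had 0.620, 1.16 and 0.923 rescaled CPM at 8 h, against 14.2, 7.17 and 11.8 at 4 h. It was close to absent in each 8 h library, and its log2 difference was -2.63 ± 0.58 (SE; adjusted p = 0.0195, limma). AURKB, the kinase of the chromosomal passenger complex, had 11.8, 6.97 and 10.2 at 8 h, against 34.8, 36.6 and 41.4 at 4 h, and its log2 difference was -1.88 ± 0.51 (SE; adjusted p = 0.0452, limma). ANLN, the scaffold anillin of the cleavage furrow, had 14.9, 9.68 and 5.54 at 8 h, against 33.3, 29.9 and 44.8 at 4 h, a log2 difference of -1.82 ± 0.41 (SE; adjusted p = 0.0208, limma). Neither gene overlapped between the times. The other 6 that fell, BUB1B, KIF20A, KIF2C, AURKA, CKAP2 and CENPF, differed by -1.73, -1.59, -1.59, -1.52, -1.49 and -1.06 on the log2 scale.

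BUB1B, a checkpoint kinase of the kinetochore, and KIF20A, a kinesin of cytokinesis, passed without any one of the 6 libraries. The other 8 calls were each lost in at least 1 such fit, with adjusted p of 0.0619 to 0.220 where lost. In numbers, 5 of the 10 remained without 8 h replicate 1, 5 without 8 h replicate 2, 2 without 8 h replicate 3, 4 without 4 h replicate 1, 5 without 4 h replicate 2 and 2 without 4 h replicate 3. The median of the list stayed below that of all genes under the other scalings, at -1.25 against -0.45 with library size and at -0.92 against -0.28 as deposited. MKI67, the Ki-67 antigen of dividing cells, named here after its values were seen, had 23.6, 32.9 and 21.2 rescaled CPM at 8 h, against 57.3, 65.3 and 66.4 at 4 h.

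Promoters of G2/M genes are known for a CHR element (TTTGAA), bound by complexes that regulate cell cycle genes, and for CCAAT boxes, bound by NF-Y. The stretches of 150 bases before the start of 5 of the 10 G2/M genes that fell are shown to let these letters be seen, from RefSeq on GRCh38.p14, 5′ to 3′ on the gene's own strand, with CCAAT or ATTGG and TTTGAA or TTCAAA in capitals. The 5 were chosen because they hold such letters, and the same stretches of CENPE, KIF2C and CKAP2 hold none. They lie at chr16:23678739-23678888 (PLK1), chr7:36389712-36389861 (ANLN), chr15:40160919-40161068 (BUB1B), chr5:138178962-138179111 (KIF20A) and chr1:214603045-214603194 (CENPF), each on the plus strand.
PLK1: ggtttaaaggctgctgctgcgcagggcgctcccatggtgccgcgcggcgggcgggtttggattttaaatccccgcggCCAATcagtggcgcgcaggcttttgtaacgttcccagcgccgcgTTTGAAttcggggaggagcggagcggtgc
ANLN: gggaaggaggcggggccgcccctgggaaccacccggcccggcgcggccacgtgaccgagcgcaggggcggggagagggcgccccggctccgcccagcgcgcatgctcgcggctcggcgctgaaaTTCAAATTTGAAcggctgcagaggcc
BUB1B: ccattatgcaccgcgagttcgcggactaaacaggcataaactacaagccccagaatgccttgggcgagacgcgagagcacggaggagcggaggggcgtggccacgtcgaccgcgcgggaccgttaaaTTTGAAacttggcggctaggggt
KIF20A: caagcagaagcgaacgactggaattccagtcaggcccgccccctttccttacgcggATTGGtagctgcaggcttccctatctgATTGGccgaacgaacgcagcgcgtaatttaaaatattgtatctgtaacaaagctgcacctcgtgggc
CENPF: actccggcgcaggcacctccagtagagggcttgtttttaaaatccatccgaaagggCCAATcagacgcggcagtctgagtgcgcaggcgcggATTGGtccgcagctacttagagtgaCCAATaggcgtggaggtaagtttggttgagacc
Within 250 bases before the start, CCAAT on either strand was in 4 of the 9 genes with an entry and in 32.0% of all 35116 RefSeq promoters, and TTTGAA in 3 of the 9 and in 13.3%. In ANLN the 2 copies of TTTGAA lie back to back on opposite strands. The matches are letters in a window and were not measured as sites.

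Genes of DNA replication were also among those that fell. Of 37 genes of the S-phase and licensing list, 4 fell (MCM10, CDC6, CCNA2 and FEN1) and 0 rose, beside 1.93% of all genes that fell, with a median log2 difference of -0.34 beside -0.08 over all genes. CCNA2, cyclin A, which works in S phase and up to mitosis, had 26.1, 17.4 and 23.1 rescaled CPM at 8 h, against 70.6, 75.7 and 71.3 at 4 h. The libraries of each time lay close together, at 22.2 ± 4.38 at 8 h and 72.5 ± 2.76 at 4 h (SD, n = 3 each). The log2 difference was -1.68 ± 0.30 (SE; adjusted p = 0.00455, limma), and the call held without any one library. CDC6, which loads the replicative helicase, had 3.10, 4.26 and 1.85 rescaled CPM at 8 h, against 13.7, 11.6 and 11.4 at 4 h, a log2 difference of -1.74 ± 0.27 (SE; adjusted p = 0.00255, limma). FEN1, the flap endonuclease of Okazaki fragments, had 81.3, 61.2 and 55.4 at 8 h, against 151, 175 and 153 at 4 h, and its call was lost without 8 h replicate 3, 4 h replicate 2 or 4 h replicate 3 (adjusted p 0.0522 to 0.0702). MCM10 and CDC6 passed without any one library. The 14 histone genes tested held 0 changed genes, near the 2.25% of all genes tested. Their median was 0.20, but -0.22 with library size scaling and -0.10 with the deposited scaling.

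Among all 22 falls that held without any one library were genes of several other tasks. CUL1, the scaffold of SCF ubiquitin ligases, had 10.5, 11.6 and 7.39 rescaled CPM at 8 h, against 32.8, 29.9 and 35.7 at 4 h. Its means were 9.85 ± 2.20 at 8 h and 32.8 ± 2.89 at 4 h (SD, n = 3 each), with a log2 difference of -1.66 ± 0.22 (SE; adjusted p = 0.000517, limma). EXOSC9, a subunit of the RNA exosome, had 9.92, 10.5 and 8.31 at 8 h, against 35.3, 30.3 and 29.6 at 4 h. DEPDC1 had 14.9, 17.4 and 6.46 at 8 h, against 30.9, 37.8 and 48.9 at 4 h. In none of these did the times overlap. RFC1 and MSH6, of replication and mismatch repair, WDR3, of small ribosomal subunit assembly, PIK3CB, a catalytic subunit of phosphoinositide 3-kinase, and CLDN4, a tight junction claudin, also stood among the 22, and were chosen for mention after their values were seen.

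The 12 largest falls among genes with a mean of at least 20 rescaled CPM were HSPA1B, PLK1, AURKB, ANLN, ATAD2, CCNA2, CUL1, PRRC2C, EXOSC9, DEPDC1, PPP1R13L and SRXN1. ATAD2, a bromodomain ATPase of chromatin, had 20.5, 13.6 and 19.4 rescaled CPM at 8 h, against 65.7, 57.4 and 63.4 at 4 h, a log2 difference of -1.77 ± 0.35 (SE; adjusted p = 0.00879, limma). PPP1R13L, the p53-binding protein iASPP, had 18.0, 21.7 and 19.4 at 8 h, against 67.1, 41.0 and 80.4 at 4 h. SRXN1, sulfiredoxin, had 15.5, 9.30 and 16.6 at 8 h, against 62.2, 28.3 and 36.4 at 4 h. In both the times did not overlap. All 12 calls held with library size scaling and with the deposited scaling. Of the 12, 11 held without 8 h replicate 1, 10 without 8 h replicate 2, 5 without 8 h replicate 3, 8 without 4 h replicate 1, 11 without 4 h replicate 2 and 5 without 4 h replicate 3, with adjusted p of 0.0522 to 0.149 where lost. CCNA2, CUL1, EXOSC9 and DEPDC1 held in each of the 6 fits, and AURKB in none of them. Those fits take the spread from all 10 groups. With only the 2 compared groups fitted, AURKB, ATAD2 and CCNA2 kept their calls. The other 9, among them CUL1, EXOSC9 and DEPDC1, lost theirs there (adjusted p up to 0.104, limma).

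**Figure D2:**
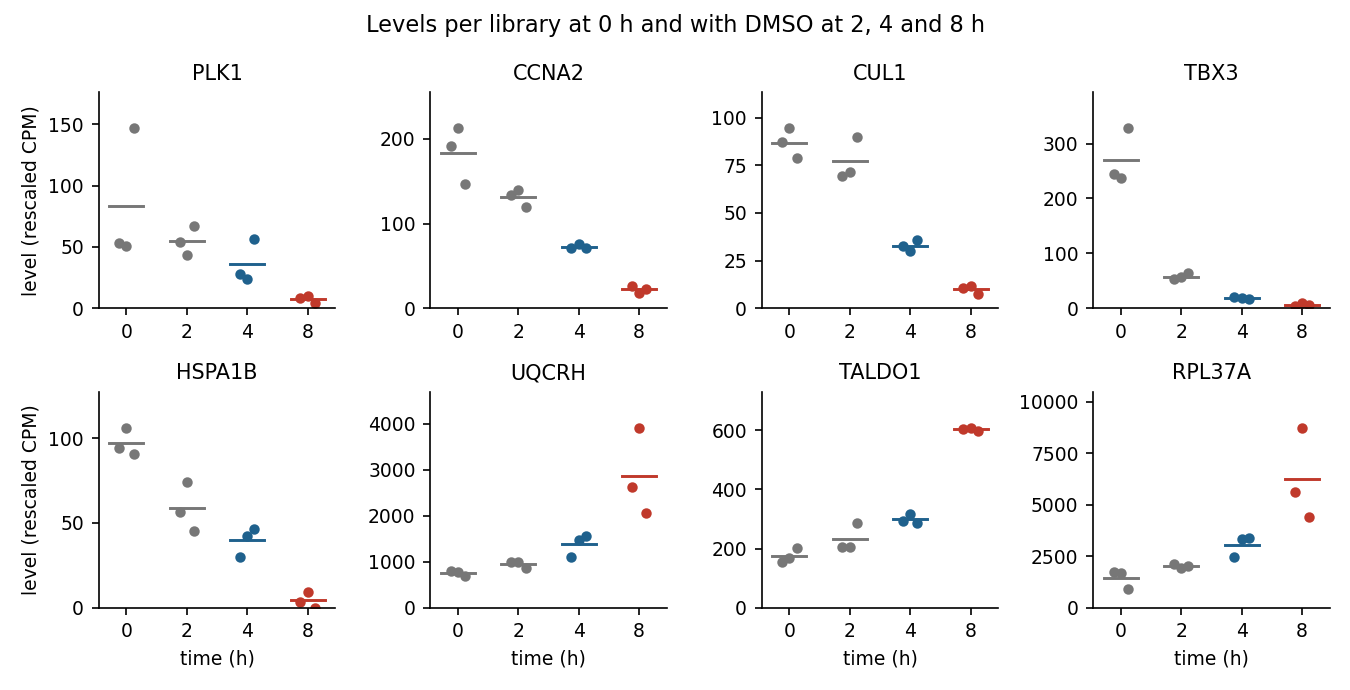
Level of 8 genes in each library (rescaled CPM, linear axes from 0) at 0 h and with DMSO at 2, 4 and 8 h, with lines at the means of 3 libraries. PLK1, CCNA2, CUL1, TBX3 and HSPA1B are lowest at 8 h, and UQCRH, TALDO1 and RPL37A are highest there.

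The heat shock genes split. Of 24 chaperone genes, 3 fell and 1 rose, beside 1.93% and 0.324% of all genes, and the median log2 difference was -0.16. HSPA1B, an inducible HSP70, had 3.72, 9.30 and 0 rescaled CPM at 8 h from 6, 24 and 0 reads, against 29.9, 42.6 and 46.7 at 4 h. Replicate 3 at 8 h had no read of it. The mean was 97.0 at 0 h, 58.6 at 2 h, 39.7 at 4 h and 4.34 at 8 h. The log2 difference of 8 h and 4 h was -3.46 ± 0.68 (SE; adjusted p = 0.00831, limma). HSPA1A, a near-identical copy whose reads cannot be cleanly told from those of HSPA1B, had 4.96, 5.42 and 7.39 at 8 h, against 14.7, 16.7 and 31.5 at 4 h. DNAJA1, a co-chaperone of HSP70, had 93.7, 84.0 and 89.5 at 8 h, against 187, 168 and 180 at 4 h. HSP90AA1, the inducible HSP90, went the other way, with 3319, 4031 and 2382 at 8 h, against 1565, 1759 and 1895 at 4 h (log2 difference 0.87; adjusted p = 0.0418, limma). None of the 4 calls held in all 6 fits without 1 library: 2 remained without each of 8 h replicates 1, 2 and 3 and 4 h replicates 1 and 2, and 0 without 4 h replicate 3, with adjusted p of 0.0578 to 0.151 where lost. The rise of HSP90AA1 kept its direction under the other scalings, where no heat shock gene was called higher.

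Several lists of regulators held falls and no rise. Of 50 genes of nucleolar ribosome assembly, 8 fell and 0 rose, beside 1.93% of genes tested that fell, with a median log2 difference of -0.54. NOL11, of the complex that processes the small subunit precursor, had 4.96, 3.49 and 0 rescaled CPM at 8 h, against 9.80, 13.5 and 23.1 at 4 h (log2 difference -2.38; adjusted p = 0.00709, limma). WDR43, UTP6 and DDX10 differed by -2.10, -2.04 and -1.91 on the log2 scale, and GTPBP4, UTP3, NOP16 and GNL2 also fell. In 27 of the 50 the 8 h libraries lay below the 4 h libraries without overlap, beside 16.4% of genes tested. Of the 8 calls, 6 remained without 8 h replicate 1, 5 without 8 h replicate 2, 2 without 8 h replicate 3, 3 without 4 h replicate 1, 5 without 4 h replicate 2 and 1 without 4 h replicate 3, with adjusted p of 0.0523 to 0.179 where lost. GTPBP4, a GTPase of large subunit assembly, held in all 6.

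Of 50 chromatin regulators, 4 fell, beside 1.93% of all genes, and 0 rose, and the median was -0.63. KMT2A, a histone methyltransferase of the MLL family, had 6.20, 5.03 and 6.46 rescaled CPM at 8 h, against 25.5, 15.9 and 37.2 at 4 h (log2 difference -1.91; adjusted p = 0.0133, limma). The acetyltransferases CREBBP and EP300 differed by -1.83 and -1.43, and ARID2, a subunit of the PBAF remodeller, by -1.22. At 8 h each of the 4 was below its lowest 4 h library. Between 0 and 3 of these 4 calls remained when 1 library was left out (2, 3 and 2 without 8 h replicates 1, 2 and 3, and 1, 3 and 0 without 4 h replicates 1, 2 and 3), with adjusted p of 0.0547 to 0.153 where lost.

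Of 37 genes of P-TEFb and elongation, the machinery that CDK9 belongs to, 4 fell, beside 1.93% of all genes, and 0 rose, with a median of -0.44. CTR9, of the PAF complex, had 9.92, 10.1 and 6.46 rescaled CPM at 8 h, against 21.6, 31.5 and 33.8 at 4 h (log2 difference -1.61; adjusted p = 0.0249, limma). HEXIM1, which holds P-TEFb inactive, had 5.58, 3.49 and 1.85 at 8 h, against 12.3, 9.16 and 11.002 at 4 h (log2 difference -1.42; adjusted p = 0.0266, limma). NELFA, of the pausing factor NELF, and RTF1 differed by -1.59 and -0.96. Without 8 h replicates 1, 2 and 3 the calls were 3, 3 and 0, and without 4 h replicates 1, 2 and 3 they were 1, 0 and 0, with adjusted p of 0.0542 to 0.203 where lost. The 12 subunit genes of RNA polymerase II had 0 changed members, near the 2.25% of all genes tested. Their median was 0.45, which was 0.01 with library size scaling.

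Of 19 luminal prostate transcription factors, 3 fell, beside 1.93% of all genes, and 0 rose, with a median of -0.48, and 17 were below 0. TBX3, a T-box repressor, had 4.96, 9.30 and 5.54 rescaled CPM at 8 h, against 19.6, 18.7 and 16.3 at 4 h. The means were 6.60 ± 2.35 at 8 h and 18.2 ± 1.70 at 4 h (SD, n = 3 each), and the log2 difference was -1.38 ± 0.24 (SE; adjusted p = 0.00355, limma), a call that held without any one library. XBP1, a factor of the secretory pathway, had 12.4, 21.3 and 14.8 at 8 h, against 32.8, 29.5 and 46.3 at 4 h, and GRHL2, an epithelial factor, 0.620, 1.16 and 0 at 8 h, against 5.39, 3.19 and 3.79 at 4 h. Their calls were lost without 8 h replicate 3 and without each 4 h library, that of XBP1 also without 8 h replicate 1 (adjusted p 0.0563 to 0.177 where lost).

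Smaller numbers changed elsewhere, and none of the calls named in this paragraph held in all 6 fits without 1 library, with adjusted p of 0.0506 to 0.166 where lost. SRSF5, a splicing factor, had 57.7, 48.4 and 34.2 rescaled CPM at 8 h, against 123, 136 and 109 at 4 h, and was lost without 8 h replicate 3 alone (adjusted p = 0.0559, limma). UPF2, of nonsense-mediated decay, had 3.10, 3.49 and 0 at 8 h, against 13.7, 8.76 and 12.9 at 4 h, and was lost without 8 h replicate 3 or 4 h replicate 3. Both stood below their 4 h libraries without overlap. MED1, of Mediator, HNRNPF and PRPF4, of splicing, and the p53 targets TNFRSF10B, TRIAP1 and XPC also fell, by 1.46, 1.26, 1.90, 1.82, 1.22 and 1.26 on the log2 scale, and each was lost without 4 h replicate 3 and without at least 1 other library. Of 24 immediate early and short-lived regulators 0 passed, near the 2.25% of all genes tested. KLF6, a zinc finger factor among them, had 153, 130 and 351 at 8 h, against 160, 95.2 and 69.4 at 4 h.

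Of the 37 rises, 6 were of respiratory chain genes and 2 of cytosolic ribosomal protein genes, and the others came from several pathways. Of 77 respiratory chain genes of the nucleus, 6 rose, beside 0.324% of all genes, and 0 fell, with a median log2 difference of 0.62, beside -0.08 over all genes, and 38 had 8 h libraries above the 4 h libraries without overlap, beside 11.4% of genes tested. The list took 5.99% to 6.84% of reads on genes at 8 h and 4.95% to 5.56% at 4 h. UQCRH, the hinge protein of complex III, had 2619, 3911 and 2050 rescaled CPM at 8 h, against 1100, 1482 and 1567 at 4 h. The 8 h libraries were all higher, with replicate 2 well above the others, and the log2 difference was 1.01 ± 0.24 (SE; adjusted p = 0.0266, limma). NDUFS5, of complex I, had 923, 1113 and 975 at 8 h, against 522, 512 and 575 at 4 h, a log2 difference of 0.90 ± 0.20 (SE; adjusted p = 0.0165, limma). UQCRQ, UQCR10 and UQCR11, also of complex III, and COX7A2, of complex IV, rose by 0.96, 0.70, 0.79 and 0.95. The median of the list was 0.18 with library size scaling and 0.31 with the deposited scaling, with 0 members called in each. Of the 6 calls 3 remained without 8 h replicate 1, 3 without 8 h replicate 3, and 0 without each of 8 h replicate 2 and 4 h replicates 1, 2 and 3, with adjusted p of 0.0504 to 0.163 where lost.

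Of 77 cytosolic ribosomal protein genes, 75 did not pass, 2 rose (RPL37A and RPL32) and 0 fell, beside 0.324% and 1.93% of all genes. Their median log2 difference was 0.79, 76 were above 0 and 52 had 8 h libraries above the 4 h libraries without overlap, beside 11.4% of genes tested. The median was 0.35 with library size scaling and 0.47 with the deposited scaling, with 0 members called in each. Their share of reads on genes was 16.5% to 20.7% at 8 h and 13.2% to 15.2% at 4 h. RPL37A had 5643, 8747 and 4387 rescaled CPM at 8 h, against 2444, 3360 and 3398 at 4 h, and RPL32 had 6212, 8419 and 4605 at 8 h, against 2892, 3667 and 3808 at 4 h. Both calls were lost without any one library except 8 h replicate 3 (adjusted p 0.0776 to 0.193). Ribosomal protein genes have many near-identical pseudogenes, to which reads could have been split. Of 78 mitochondrial ribosomal protein genes, 1 rose (MRPL40) and 2 fell (MRPS31 and MRPL44), beside 0.324% and 1.93% of all genes. The median of the 78 was 0.11, which was -0.33 with library size scaling.

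Other rises came from several pathways. TALDO1, transaldolase of the pentose phosphate pathway, had 603, 608 and 595 rescaled CPM at 8 h, against 295, 315 and 286 at 4 h. The libraries of each time nearly coincided, at 602 ± 6.34 at 8 h and 299 ± 15.1 at 4 h (SD, n = 3 each), a log2 difference of 1.01 ± 0.25 (SE; adjusted p = 0.0357, limma). CALM3, a calmodulin, had 2709, 2876 and 2738 at 8 h, against 1412, 1623 and 1329 at 4 h. NUCB2, the precursor of nesfatin, had 142, 189 and 129 at 8 h, against 51.0, 74.1 and 90.7 at 4 h, the largest rise among genes with at least 20 rescaled CPM (log2 difference 1.10; adjusted p = 0.0396, limma). The NME1-NME2 readthrough and NME2, whose transcripts overlap, SPINK1, a secreted trypsin inhibitor, PARK7, MRPL40, UQCRQ and COX7A2 completed the 12 largest rises, with RPL37A and UQCRH. All 12 were lost without 8 h replicate 2, 4 h replicate 1 or 4 h replicate 3, 10 without 8 h replicate 1, 9 without 8 h replicate 3 and 11 without 4 h replicate 2, with adjusted p of 0.0525 to 0.223 where lost. All 12 kept their direction and lost the call with library size scaling (adjusted p 0.102 to 0.254) and with the deposited scaling (0.168 to 0.335).

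Other lists of abundant transcripts lay above the bulk of genes with 0 changed members, near the 2.25% of all genes tested. The medians were 0.49 for 18 glycolytic enzyme genes, 0.44 for 39 genes of lysosomes and the secretory pathway, 0.31 for 31 proteasome genes and 0.17 for 36 translation factor genes. With library size scaling those medians were 0.06, 0.00, -0.13 and -0.27, so for proteasome and translation factor genes the sign turned. GAPDH had 5842, 4122 and 6812 rescaled CPM at 8 h, against 4492, 4939 and 4077 at 4 h, and its times overlapped. CD63, a tetraspanin of lysosomes, had 2892, 2938 and 2947 at 8 h, against 1453, 1747 and 1589 at 4 h, without overlap and without passing the test (adjusted p = 0.141, limma).

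**Figure D3:**
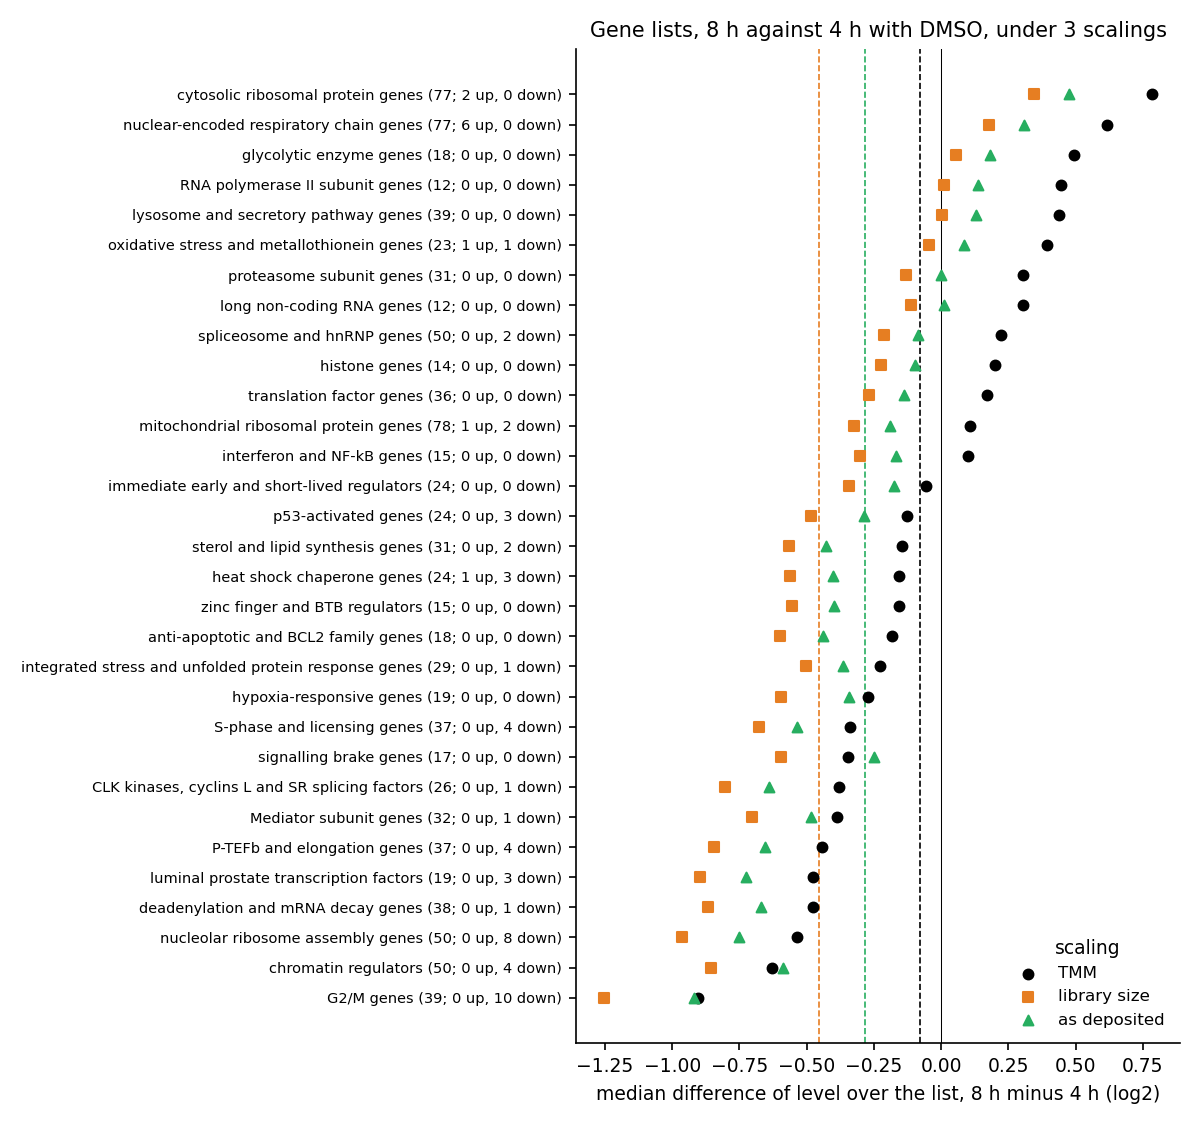
Median log2 difference of level (8 h minus 4 h) over gene lists with at least 10 genes tested. The cell type marker lists and the androgen receptor target list are not drawn. Symbols give TMM, library size and the deposited scaling, and dashed lines the medians of all genes. Brackets give genes tested and called up or down. The order from ribosomal protein genes (0.79) to G2/M genes (-0.90) is that of the TMM medians, and the other scalings lie mostly to the left of them.

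Differences of level moved with the conversion that a gene had shown earlier, in DMSO libraries at 2 h that enter neither side of the comparison. In 619 genes with conversion of at most 0.1% at 2 h the median log2 difference was 0.37. It was 0.29 in 1678 genes between 0.1% and 0.3%, 0.01 in 2719 genes up to 1%, -0.26 in 1583 genes up to 3% and -0.31 in 570 genes up to 10%. The median was lower in the classes with more conversion up to 10%, and 116 genes above 10% had a median of 0.09. With library size scaling the medians ran from -0.06 in the lowest class to -0.71 at 3% to 10% and -0.33 above 10%. In the classes up to 1%, 1 of 619, 14 of 1678 and 78 of 2719 genes fell, beside 1.93% of all genes tested. Above 1%, 69 of 1583, 13 of 570 and 0 of 116 fell. Level at 4 h moved with these classes, with a median of 56.6 rescaled CPM in the lowest and 18.5 at 3% to 10%. Transcript length and GC content also moved with the difference. The genes that rose had a median length of 1324 bases and 52.2% GC, those that fell 3436 bases and 46.1%, and all genes tested 2750 bases and 49.5%. The part of level, length and GC content in these differences was not tested. Mean conversion of the 0 h libraries was 0.288% to 0.408%, so the classes up to 0.3% lie near or below the level at 0 h. Whether these low classes differ in labelling was not tested.

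**Figure D4:**
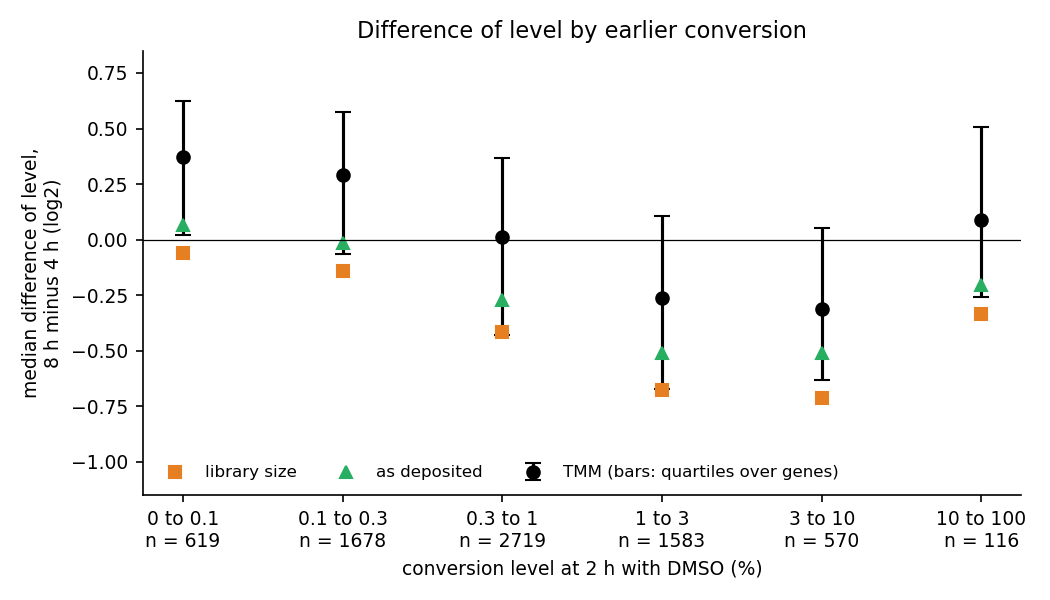
Median log2 difference of level (8 h minus 4 h) in classes of conversion level at 2 h with DMSO, under 3 scalings, with bars at the quartiles over genes for TMM. The TMM median is 0.37 in the lowest class, -0.31 at 3% to 10% and 0.09 above 10%.

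Labelling of whole libraries did not separate the times. Weighted by reads, mean conversion was 0.897%, 1.29% and 1.49% at 8 h, against 1.12%, 1.01% and 1.12% at 4 h. Replicate 1 at 8 h lay below all 4 h libraries and the other two above them. The means were 1.23% ± 0.302 at 8 h and 1.08% ± 0.0664 at 4 h (SD, n = 3 each; difference 0.143 percentage points; exact two-sided permutation p = 0.5, where 0.1 is the smallest possible). The median over 5224 genes with values in all 6 libraries was 0.708% ± 0.187 at 8 h and 0.598% ± 0.0683 at 4 h.

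Gene by gene, conversion rose in many more genes than it fell. Of 6475 genes tested, 206 (3.18%) passed, of which 200 (3.09%) rose and 6 (0.0927%) fell. Without 8 h replicate 1, the library with the lowest mean conversion, 412 passed. The number was 99 without 8 h replicate 2, 89 without 8 h replicate 3, 120 without 4 h replicate 1 and 134 without 4 h replicate 2. In all 6 such fits 53 genes stayed higher and 0 lower. Of the 200 that rose, 191 did not pass the test of level. On a log2 scale of conversion 0 genes passed in limma, and 335 had an unadjusted p under 0.05.

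PPP2R2A, a regulatory subunit of the phosphatase PP2A, had the largest rise. Its conversion was 29.8%, 36.4% and 43.8% at 8 h, against 13.9%, 14.6% and 13.9% at 4 h. Each 8 h library was more than 2-fold above each 4 h library, with 185 to 350 reads behind the values at 8 h and 224 to 328 at 4 h. The adjusted p was 1.27e-07 (limma on the arcsine scale), while its level, 142 ± 30.8 rescaled CPM at 8 h and 121 ± 9.61 at 4 h (SD, n = 3 each), did not pass. TMEM127, a membrane protein known as a tumour suppressor, had 29.9%, 35.8% and 35.0% at 8 h, against 17.7%, 10.4% and 8.98% at 4 h (adjusted p = 2.14e-05, limma). SRP19, of the signal recognition particle, had 33.3%, 35.6% and 31.3% at 8 h, against 16.1%, 16.3% and 17.6% at 4 h (adjusted p = 9.89e-05, limma). In both the times did not overlap. ADM2, the hormone precursor adrenomedullin 2, had 33.1%, 28.4% and 19.9% at 8 h, against 3.02%, 10.6% and 13.5% at 4 h, from 23 to 35 reads a library at 8 h. These 4 calls held without any one library in the fit of all 10 groups. With only the 2 compared groups fitted, SRP19 kept its call and PPP2R2A, TMEM127 and ADM2 lost theirs. On the log2 scale of conversion none of the 4 passed (adjusted p of at least 0.914, limma).

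HOXB7, a homeobox factor, had 38.6%, 39.2% and 27.4% at 8 h, against 16.2%, 23.1% and 13.1% at 4 h, and was lost without 8 h replicate 2 or 4 h replicate 3 (adjusted p 0.0687 and 0.0538, limma). TMEM115 had 47.8%, 50.7% and 47.0% at 8 h, against 30.2%, 28.7% and 36.1% at 4 h, and C1orf52 had 36.8%, 33.4% and 11.8% at 8 h, against 7.95%, 9.93% and 13.2% at 4 h. The divergent transcript EIF3J-DT had 20%, 37.0% and 53.8% at 8 h, against 23.2%, 10.0% and 11.9% at 4 h. The last 2 overlapped between the times. TMEM115 was lost without 8 h replicates 2 or 3 or 4 h replicates 1 or 2, C1orf52 without 8 h replicates 1 or 2 or 4 h replicates 1 or 2, and EIF3J-DT without 8 h replicates 2 or 3 or 4 h replicates 2 or 3 (adjusted p up to 0.247, limma).

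KLF6 and SOX4, both short-lived factors, had high conversion at both times and did not pass. KLF6 had 50.6%, 52.5% and 50.1% at 8 h, against 42.0%, 45.7% and 45.3% at 4 h (adjusted p = 0.368, limma), and SOX4 had 29.001%, 32.1% and 34.0% at 8 h, against 27.2%, 25.3% and 24.3% at 4 h (adjusted p = 0.162, limma). Neither overlapped between the times. At the other end, RPL37A had 0.158%, 0.222% and 0.246% at 8 h, against 0.222%, 0.157% and 0.237% at 4 h. The median of 72 ribosomal protein genes tested was 0.248% at both times. These values lay below the mean conversion of the 0 h libraries, 0.345%. Of 36 genes whose level rose and whose conversion was tested, 0 changed in conversion, a share near the 3.18% of all genes tested. Among those with values in all 6 libraries (34 genes) the median conversion was 0.332% at 8 h and 0.337% at 4 h, beside 0.764% at 8 h and 0.619% at 4 h over 5224 genes.

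In a few genes a fall of level went with a rise of conversion. Of 61 genes whose level fell and whose conversion was tested, 9 rose in conversion and 0 fell, beside 3.09% and 0.0927% of all genes tested. In 32 of them with values in all 6 libraries the median was 4.06% at 8 h and 1.87% at 4 h. CCNA2 had 3.54%, 4.96% and 6.03% at 8 h, against 1.41%, 2.35% and 1.82% at 4 h (adjusted p = 0.0190, limma). DNAJA1 had 5.89%, 11.8% and 12.4% at 8 h, against 5.97%, 2.99% and 2.77% at 4 h (adjusted p = 0.00300, limma), and its times overlapped. FEN1 had 3.74%, 5.14% and 6.58% at 8 h, against 2.63%, 1.70% and 1.69% at 4 h. The others were MKI67, HNRNPF, MSMO1, a sterol demethylase, ATP2A2, the calcium pump of the endoplasmic reticulum, MAGEF1 and PAFAH1B1, named here after their values were seen. For conversion, DNAJA1 and MAGEF1 held without any one library, and the other 7 were lost in at least 1 such fit: 8 of the 9 remained without 8 h replicate 1, 3 without 8 h replicate 2, 3 without 8 h replicate 3, 5 without 4 h replicate 1, 8 without 4 h replicate 2 and 7 without 4 h replicate 3, with adjusted p of 0.0511 to 0.182 where lost.

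The 6 genes whose conversion fell were KRT7, MAN2A2, MGRN1, PSME3IP1, TIMM10 and WDR46. TIMM10, an import chaperone of mitochondria, had 0.195%, 0.414% and 0% at 8 h, against 3.24%, 2.88% and 1.66% at 4 h (adjusted p = 0.0205, limma), from 20 to 140 reads a library at 8 h. MAN2A2, a mannosidase of the Golgi, had 0.255%, 0.988% and 0% at 8 h, against 1.92%, 3.06% and 2.56% at 4 h (adjusted p = 0.0204, limma). The times did not overlap, but both calls, like those of MGRN1 and WDR46, were lost without 8 h replicate 3 (adjusted p 0.159 to 0.307). Of these 4 calls 3 remained without 8 h replicate 1, 3 without 8 h replicate 2, 1 without 4 h replicate 1, 2 without 4 h replicate 2 and 1 without 4 h replicate 3.

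**Figure D5:**
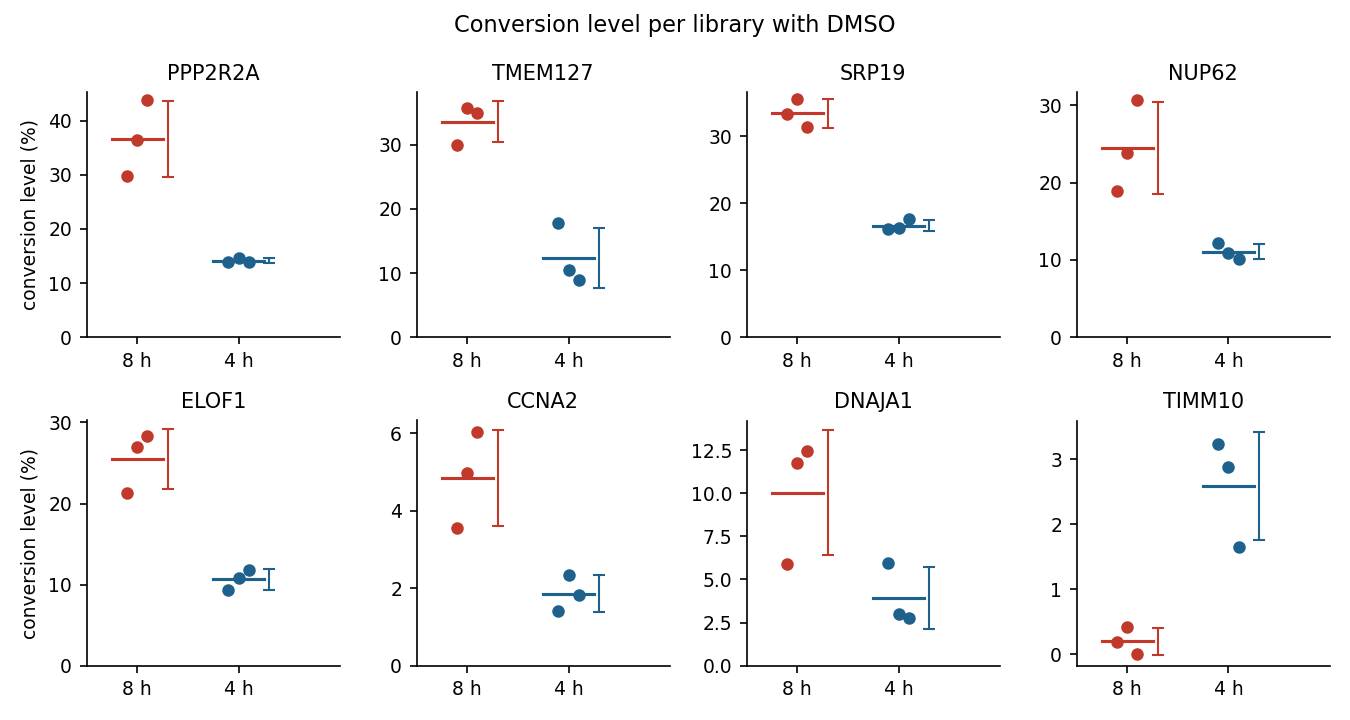
Conversion level (%) of 8 genes in each library at 8 h (red) and 4 h (blue) with DMSO, with lines at the means and bars of 1 SD either way over 3 libraries. PPP2R2A, TMEM127, SRP19, NUP62, ELOF1 and CCNA2 are higher at 8 h without overlap, DNAJA1 overlaps, and TIMM10 is lower.

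The same interval was set against that under each CDK9 inhibitor, with the difference of the 2 changes tested. The comparisons share no library. For levels, 0 of 11425 genes differed between DMSO and KB742 in limma (0%; 385 at an unadjusted p under 0.05) and 0 in edgeR (365), and 0 differed between DMSO and KI-ARv-03 in limma (656) and in edgeR (624). The median half-width of the 95% interval of such a difference was 1.22 on the log2 scale, so a smaller difference was not detectable in most genes. That interval is not adjusted for the number of genes tested, so larger differences could also be missed. CUL1 changed by -1.66 with DMSO, -0.47 with KB742 and -0.81 with KI-ARv-03, and the difference between DMSO and KB742 was -1.19 (95% interval -1.83 to -0.55; adjusted p = 0.999, limma). HSPA1B changed by -3.46 with DMSO, -2.88 with KB742 and -3.19 with KI-ARv-03. TALDO1 changed by 1.01 with DMSO, 0.44 with KB742 and 0.56 with KI-ARv-03. The signs were the same for these 3 genes, and no adjusted p was below 0.617 for any gene against either inhibitor.

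Conversion did differ. The change in conversion was larger with DMSO than with KB742 in 18 of 6209 genes (0.29%) and smaller in 0. Against KI-ARv-03, 139 of 6258 genes (2.22%) differed, 138 of them (2.21%) with the larger rise in DMSO and 1 (0.016%) with the smaller. The KI-ARv-03 count fell to 24 without KI-ARv-03 4 h replicate 1, whose mean conversion of 1.18% stood apart from the 0.382% and 0.422% of the other two. It was 451 without KI-ARv-03 4 h replicate 2, 290 without 4 h replicate 3, 53 without KI-ARv-03 8 h replicate 2 and 65 without 8 h replicate 3. Leaving out DMSO libraries moved it to 455 without 8 h replicate 1, 50 without 8 h replicate 2, 42 without 8 h replicate 3, 54 without 4 h replicate 1 and 69 without 4 h replicate 2. The KB742 count was 81, 11 and 5 without DMSO 8 h replicates 1, 2 and 3, 8 and 4 without DMSO 4 h replicates 1 and 2, 11 and 5 without KB742 4 h replicates 1 and 3, and 10 without KB742 8 h replicate 2.

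PPP2R2A had 36.7% ± 7.02 conversion at 8 h and 14.2% ± 0.393 at 4 h with DMSO (SD, n = 3 each). With KB742 it had 3.44% ± 1.60 at 8 h and 2.82% ± 0.626 at 4 h, and with KI-ARv-03 3.06% ± 2.00 at 8 h and 2.63% ± 0.978 at 4 h (SD, n = 3 each). The change differed from that under KB742 (adjusted p = 0.000731, limma) and under KI-ARv-03 (0.000200, and 0.00388 without KI-ARv-03 4 h replicate 1). NUP62, a nucleoporin of the central channel, had 18.9%, 23.8% and 30.7% at 8 h, against 12.2%, 10.9% and 10.2% at 4 h with DMSO. It had 3.57% at 8 h and 3.56% at 4 h with KB742, and 3.29% at 8 h and 4.83% at 4 h with KI-ARv-03 (adjusted p = 0.0240 and 0.00273, limma). For PPP2R2A both differences, and for NUP62 that from KI-ARv-03, held without any one library. That of NUP62 from KB742 was lost without DMSO 4 h replicates 2 or 3, DMSO 8 h replicate 3, KB742 4 h replicate 3 or KB742 8 h replicate 1 (0.0613 to 0.117).

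ELOF1, an elongation factor, had 21.3%, 26.9% and 28.3% at 8 h, against 9.31%, 10.8% and 11.8% at 4 h with DMSO, and means of 4.77% at 8 h and 5.25% at 4 h with KB742 (adjusted p = 0.0355, limma). The difference was lost without DMSO 4 h replicates 1 or 2, DMSO 8 h replicates 2 or 3, KB742 4 h replicate 3 or KB742 8 h replicates 2 or 3 (0.0833 to 0.193). FOXP1, a forkhead factor, rose more with DMSO than with KI-ARv-03 (adjusted p = 0.00895, limma), which held without any one library. Its conversion was 31.4%, 22.1% and 36.3% at 8 h, against 15.8%, 14.3% and 16.8% at 4 h with DMSO, and 5.14% ± 1.80 at 8 h and 8.61% ± 0.612 at 4 h with KI-ARv-03 (SD, n = 3 each). TIMM10, the 1 gene with the opposite direction against KI-ARv-03 (adjusted p = 0.0340, limma), had 2.00% ± 0.229 at 8 h and 1.08% ± 1.19 at 4 h with that compound (SD, n = 3 each). It was lost without DMSO 4 h replicates 1 or 2, DMSO 8 h replicate 3, KI-ARv-03 4 h replicate 3 or KI-ARv-03 8 h replicates 2 or 3 (0.0572 to 0.0982).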

How the data were processed

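The table holds 30 SLAM-seq libraries of 3′ ends, of which 6 are compared. One measure, headed CPM, is a signal the authors made by scaling reads to a library total. 100% of values were whole multiples (within 0.05) of a library's smallest step, which gave whole reads. The other, headed CONVERSION, is a deposited fraction, printed here in percent. Its numerator and denominator are not used here, so it is no share of reads. The genome build is hg19, per the submitters' processing notes. Which aligner and conversion caller ran is not given in the sources used here.

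The table has 85618 rows, in which some transcript identifiers repeat. Of 50925 identifiers, 50531 (99.2%) matched a symbol, and those without a name held 0.478% of reads. For each gene the transcript with the highest summed CPM as deposited was kept, giving 22383 genes. Genes sharing all their reads with another numbered 1418. None of 13 mitochondrially encoded genes was in the table used. Whole reads were divided by edgeR 4.0.16 TMM library sizes and tested as log2(CPM + 1) with limma 3.58.1 (R 4.3.3, trended variances) in 1 fit of 10 groups. The design had named the deposited CPM, whose sums proved not to be a common total. The filter, a minimum count of 10 in edgeR's filterByExpr over all 10 groups, left 11425 genes. Fold changes on this scale understate those of low genes. The median half-width of the 95% interval of a log2 difference was 0.865, and intervals cover the spread between libraries only.

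The arcsine of the square root of conversion went into limma, with a variance trend over read depth, values behind fewer than 20 reads missing and at least 2 values a group. Calls needed an adjusted p under 0.05 (Benjamini-Hochberg over the whole set tested). Mean conversion was compared by an exact permutation test. Named genes are the 12 called rises and falls of level with the largest log2 difference at a mean of at least 20 rescaled CPM and no overlap, the 8 rises and 4 falls of conversion with values in all 6 libraries, up to 4 called members of a list (the 2 most abundant where none was called), and the 4 largest differences from each inhibitor. The libraries, the 40 gene lists and the tests were chosen with earlier results of these data known. The conversion differences from the inhibitors were added after the table was seen. Alternatives were edgeR's and DESeq2 1.42.0's tests on whole reads, other scalings, pseudocounts, filters and depths, the 2 groups alone, a replicate block, and leaving out libraries. Scripts were tested on simulated data. Length and GC content came from GENCODE transcripts, with values for 95.6% of genes tested. Other steps used Python 3.11.15 and its packages scipy 1.17.1, pandas 2.3.3, numpy 2.4.6 and matplotlib 3.10.9.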

Additional observations from a re-analysis of the deposited data

Results flagged for a closer look

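The change of conversion between 4 h and 8 h was not the same with DMSO as with the inhibitors, by a test of the difference itself. That test was run on the arcsine scale only. It differed from that with KB742 in 18 genes and from that with KI-ARv-03 in 139 genes, in limma at an adjusted p under 0.05. PPP2R2A, NUP62 and TMEM127 were in both sets. The KI-ARv-03 set holds 24 genes without KI-ARv-03 4 h replicate 1. The effect of that library's higher mean conversion on the others was not tested. With 3 libraries a group, single libraries that lie far from their group were not looked for by a formal rule.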

How the results depend on the processing

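Changed levels (257 genes, 37 higher and 220 lower) numbered 10 (0 and 10) when only the 2 groups were fitted, 0 with the 4 h library of matching time fields alone (0 and 0), 86 (6 and 80) in edgeR, 1238 (1 and 1237) with library size scaling, 154 (11 and 143) without a filter, and 423 (180 higher) in DESeq2. With the deposited scaling 0 were higher, and without the 3 libraries that stand apart (0 h replicate 3, KB742 2 h replicate 2, KI-ARv-03 4 h replicate 1) 71 were. Of the calls, 14.4% were higher with TMM, 42.6% in DESeq2, 6.98% in edgeR, 0.0808% with library size and 0% as deposited. Leaving out 1 library gave 30 to 207 changed, 0 to 12 higher and 30 to 205 lower. The replicate block left 168 changed and 15 higher. The numbers do not pair the samples: same-number correlations were -0.0558, -0.00251 and -0.0758, and others reached 0.222.

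Changed conversion (206 genes, 200 higher and 6 lower) numbered 4 (4 and 0) in the 2 groups alone, 57 (56 and 1) with the 4 h library of matching time fields alone, 0 (0 and 0) on a log2 scale and 311 (303 higher) without the 3 libraries that stand apart. At a minimum of 50 reads 1 was lower, and with libraries centred 11 were. Leaving out 1 library gave 89 to 412 changed, 89 to 405 higher and 0 to 7 lower. The unweighted mean of conversion differed by 0.718 percentage points (exact permutation p = 0.2), beside 0.143 weighted by reads. The difference from KB742 (18 genes) was in 30 genes (28 and 2) without the 3 libraries and in 4 to 81 (4 to 79 and 0 to 2) without 1 library. That from KI-ARv-03 (139) was in 31 (30 higher) without the 3, in 24 to 455 (23 to 454 and 0 to 1) without 1, and had 0 lower at 50 reads. The cause of these shifts was not tested, except that dropping libraries leaves fewer values.

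For named genes, 219 alternative values of level kept direction and call and 189 lost the call. For conversion 87 kept it and 63 lost it. No result reversed. Depth limits genes with few reads at 8 h: PLK1 had 13, 26 and 5.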
